A study of Homo sapiens with 8 samples.

Results

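The genes described here are 9 whose transcription is known to follow activity of the kinase ERK: ETV1, ETV4, ETV5, FOSL1, EGR1, MYC, PHLDA1, IER3 and HMGA2. They were chosen by name, with earlier results of these data known, from the 18244 genes with a probe set annotated to a single symbol. Each was read from its probe set with the highest mean over the 8 arrays. All 9 were among the 11926 genes tested, a set limited to genes that exceeded the median of their array on 2 or more arrays. ETV1 passed with 6 arrays above the median, ETV4 and ETV5 with 7 and the other members with 8. The members are not all transcription factors: ETV1, ETV4, ETV5, FOSL1, EGR1 and MYC bind DNA as sequence-specific factors, HMGA2 is an architectural chromatin protein, and PHLDA1 and IER3 are cytoplasmic or nuclear regulators without a DNA-binding domain.

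RNA was measured on 1 oligonucleotide array for each combination of line, culture and treatment, so no condition had a replicate. A549 is a human lung adenocarcinoma cell line labelled as lacking an activating EGFR mutation, and HCC827 is a human lung adenocarcinoma cell line labelled as carrying one. Both were grown in 2D dishes (200000 cells, 7 days) or on a 3D collagen scaffold (100000 cells, 14 days). Gefitinib, which blocks the kinase of EGFR, was given at 1 µM, and controls received none. In 3D it was given for 3 days from day 11; a start on day 4, stated for 3D as well, was read as the 2D start, and its duration in 2D is not stated. The cultures also differ in RNA preparation, since the 3D samples were lysed with beads and extracted with another kit, so culture, culture time and preparation cannot be told apart.

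In EGFR signalling the receptor activates RAS, the RAF and MEK kinases and then ERK, which phosphorylates factors already present in the nucleus. These induce immediate early genes such as EGR1 and IER3 within minutes to hours, and then delayed genes such as FOSL1, PHLDA1 and the PEA3 group of ETS factors (ETV1, ETV4, ETV5). ERK also stabilises some of the proteins, so that transcript and protein need not move alike. In lung adenocarcinoma with an activated EGFR allele, loss of these transcripts is a widely used readout of kinase inhibition.

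Levels are log2 signals after robust multi-array averaging (RMA), and levels of different genes are not compared, since each has its own probes. Array medians lay between 7.27 and 7.34, and the median of the 23 background probe sets between 5.99 and 6.12. The lines carried their known markers: the lung lineage factor NKX2-1 lay between 10.88 and 12.23 in HCC827 and between 6.16 and 6.56 in A549, and the aldehyde dehydrogenase ALDH1A1 between 13.70 and 14.17 in A549 and between 6.33 and 6.70 in HCC827. All 6 epithelial markers were above the median in at least 2 arrays, with a summed level of 15.52 to 16.05, and so were 2 of 7 fibroblast markers (9.36 to 10.62) and 2 of 6 blood and vessel markers (9.32 to 9.92). The HCC827 2D pair went against the 3D pair in ERK output. DUSP6, a phosphatase induced by ERK, was lower by 3.32 ± 0.15 in the 3D gefitinib array than in its control and higher by 3.64 ± 0.15 in the 2D array labelled gefitinib. The HCC827 2D arrays are therefore called by their labels, and the 3D pair is given apart from them throughout.

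Errors after ± are standard errors of a limma fit over the 11926 genes. The fit had a separate mean for each HCC827 condition, so its spread came from A549 alone, as the amount by which the A549 response to gefitinib changed from 2D to 3D. It assumes that HCC827 varies like A549, which 1 array a condition cannot check. A gene was called when its adjusted p (Benjamini-Hochberg over all tested genes, two-sided) was under 0.05. In each comparison the share of all tested genes called is given beside the count of members.

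RefSeq promoter windows (GRCh38.p14, 250 bases before to 50 after the start site) were at hand for 3 of the 9 members, namely EGR1, PHLDA1 and 6 start sites of ETV1. The stretches before the start site of EGR1 and PHLDA1 are shown because both genes moved with gefitinib in HCC827. In EGR1 (chr5:138465229-138465478, plus strand) the capitals mark 2 matches to the CArG box, the element bound by serum response factor and its ERK-phosphorylated ETS partners. In PHLDA1 (chr12:76031777-76032026, minus strand) they mark 2 matches, 1 on each strand, to CGGAA, the core bound by ETS factors.
EGR1: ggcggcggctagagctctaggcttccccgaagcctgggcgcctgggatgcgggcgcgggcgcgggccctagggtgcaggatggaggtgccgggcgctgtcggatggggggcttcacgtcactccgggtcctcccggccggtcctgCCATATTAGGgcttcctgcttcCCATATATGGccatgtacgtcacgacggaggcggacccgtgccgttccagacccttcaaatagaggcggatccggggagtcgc
PHLDA1: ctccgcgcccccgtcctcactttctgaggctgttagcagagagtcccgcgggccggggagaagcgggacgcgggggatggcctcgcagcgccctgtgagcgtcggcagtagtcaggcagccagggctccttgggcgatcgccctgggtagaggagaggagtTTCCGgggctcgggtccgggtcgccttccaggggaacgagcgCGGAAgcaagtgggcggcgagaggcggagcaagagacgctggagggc

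Counted from the start site, the CArG boxes of EGR1 begin at -105 and -83. On both strands, 1.29% of all 35116 windows held a CArG box and 34.9% held CGGAA, which was also found in 3 of the 6 ETV1 windows. No window of the 3 genes held TGANTCA (7.71% of all windows), the site of AP-1, or TGACGTCA (1.85%), the site of CREB; CACGTG (7.26%), the site of MYC with its partner MAX, was found in 1 window of ETV1. A match is a description of the letters only.

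**Figure D1:**
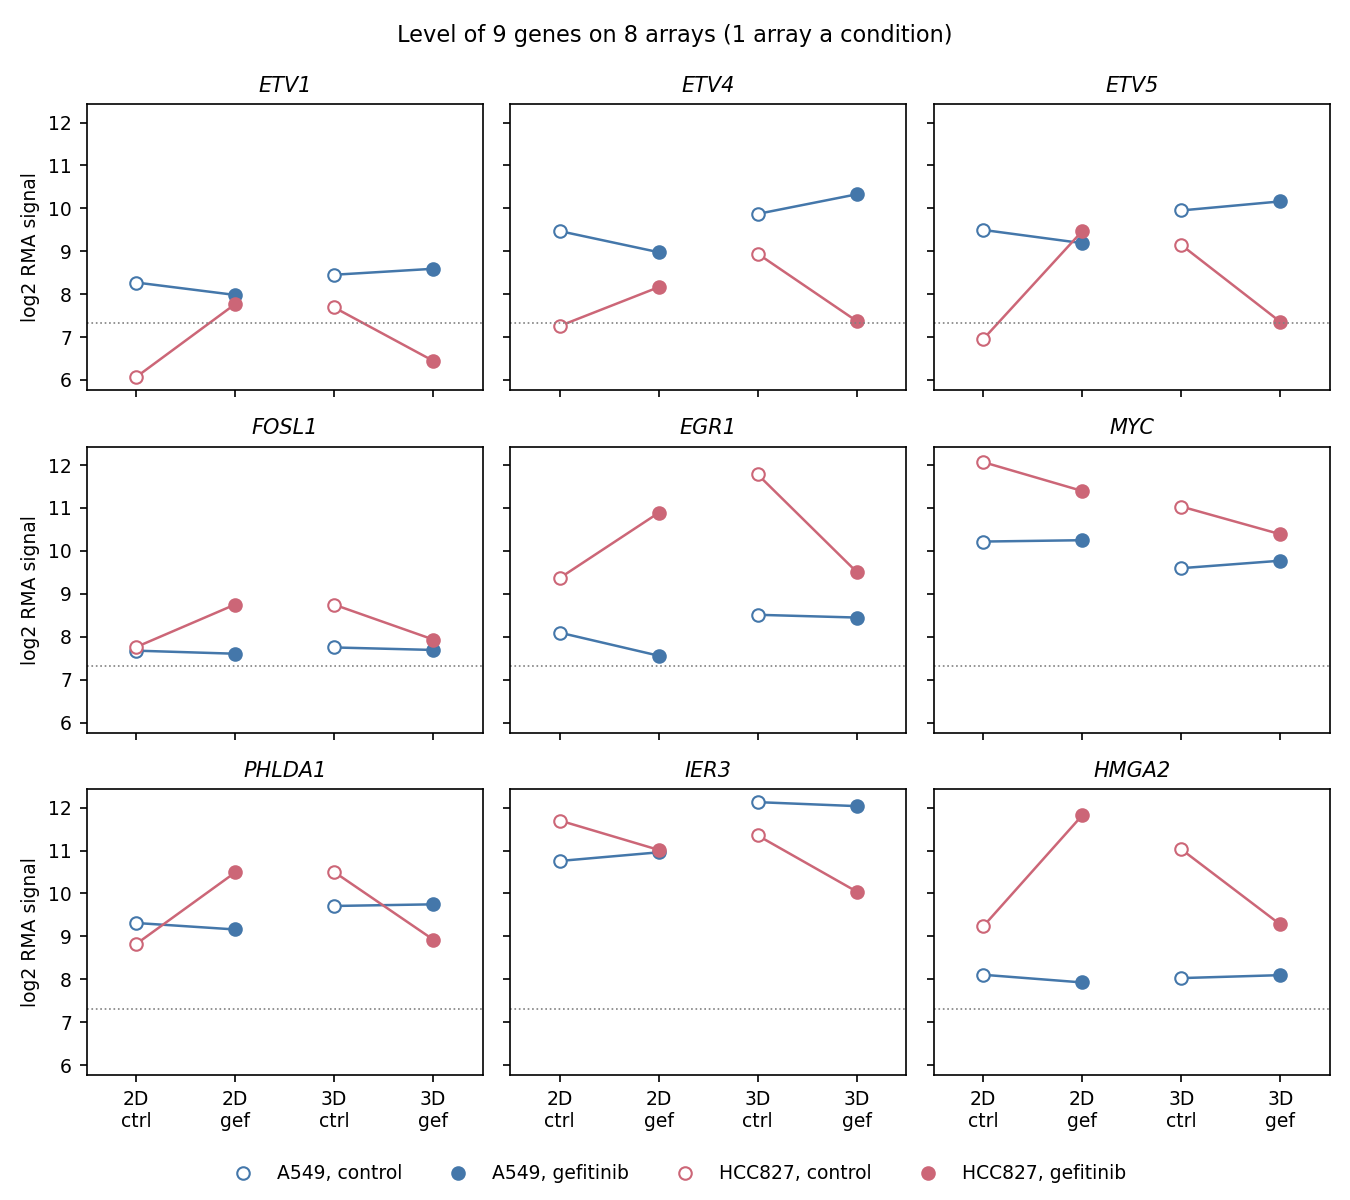
Log2 RMA signal (vertical axis) of each of the 9 genes in 2D and 3D culture, control (open circles) and gefitinib (filled circles), in A549 (blue) and HCC827 (red). Each circle is 1 array, lines join the control and gefitinib arrays of a culture, and the dotted line is the median array median. In HCC827 the lines rise in 2D and fall in 3D for 7 genes and fall in both for MYC and IER3, while the A549 differences run from -0.54 (EGR1, 2D) to 0.46 (ETV4, 3D).

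The first comparison asked how the genes responded to gefitinib in HCC827 on the scaffold. All 9 were lower in the treated array, by a median of 1.57 on the log2 scale, against a median of -0.11 over all tested genes. Each was called, while of all tested genes 20.4% were called lower, 6.73% higher and 27.1% in either direction. On the probe sets used, the falls were largest in EGR1, ETV5 and HMGA2 and smallest in FOSL1 and MYC. That order is not settled, since the values of FOSL1 and HMGA2 depend on the probe set, as given below. Here, as in all bulk RNA, fewer cells expressing a gene and less RNA per cell cannot be told apart.

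Among the PEA3 factors, which drive invasion and growth programmes below ERK, ETV5 read 9.15 in the HCC827 3D control and 7.36 in the gefitinib array, a difference of -1.79 ± 0.17 (adjusted p = 5.53e-05), or 3.46-fold lower. The treated level lay beside the array median. ETV4 read 8.94 and 7.37, a difference of -1.57 ± 0.24 (adjusted p = 0.00117). ETV1 read 7.69 and 6.45, a difference of -1.24 ± 0.16 (adjusted p = 3.23e-04), and the treated array was thus close to the background probe sets. With the mean of its 4 probe sets ETV5 stood at -1.0.

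EGR1, a zinc finger factor of the immediate early class, read 11.78 in the 3D control and 9.51 with gefitinib, the largest difference of the 9 at -2.27 ± 0.16 (adjusted p = 1.19e-05), or 4.83-fold lower. FOSL1, the AP-1 subunit FRA1, read 8.75 and 7.93, a difference of -0.81 ± 0.12 (adjusted p = 9.67e-04). The FOSL1 value depends on the probe set: the one with the largest variance gave -1.82. MYC, a factor that drives growth and ribosome production, read 11.03 and 10.39, a difference of -0.65 ± 0.12 (adjusted p = 0.00389). MYC was not called after cyclic loess normalisation (-0.37, adjusted p = 0.0587).

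Of the remaining members, HMGA2, which bends DNA in embryonic and tumour chromatin, read 11.03 in the 3D control and 9.28 with gefitinib, a difference of -1.75 ± 0.13 (adjusted p = 1.65e-05). PHLDA1, a pleckstrin homology domain protein, read 10.50 and 8.93, a difference of -1.57 ± 0.12 (adjusted p = 2.30e-05). IER3, an immediate early regulator of cell survival, read 11.35 and 10.04, a difference of -1.31 ± 0.14 (adjusted p = 1.24e-04). With the mean of all probe sets of the gene, HMGA2 stood at -0.42 and PHLDA1 at -0.89, and with its largest-variance probe set PHLDA1 stood at -0.75. All of these were still called.

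The direction in this pair was shared by most other probe sets of the genes. Of 29 further probe sets, 24 were lower in the gefitinib array, and of the 16 of these that passed the filter on low values, 15 were. The exceptions were 4 of the 7 further probe sets of ETV1, all of which failed that filter, and 1 of the 5 of HMGA2, which passed it (0.078). The fall of ETV1 thus rests on the probe set used alone. The only other that passed the filter was almost unchanged, at -0.092. Averaged over its 8 probe sets ETV1 failed the filter on low values and was not tested. MYC and IER3 have only the probe set used. RNA quality differed in the same pair: the actin 3' minus 5' difference, which rises as RNA degrades, was 2.34 in the control and 2.64 in the gefitinib array, and that of GAPDH was 0.97 and 1.57. The part of this in the falls was not tested. In the 2D pair, where 7 members had the opposite sign, actin stood at -0.09 and -0.10. Markers of cell types moved as well: 4 of 6 epithelial markers were called lower (median -0.78). The fibroblast marker LUM, 1 of 2 in its list that passed the filter, was higher by 1.09 ± 0.18. It read 6.28 in the 3D control, near the background median of that array (6.01). COL1A1, the other of the 2, was called in neither HCC827 pair (-0.070 in 3D and -0.13 in 2D). LUM stood at -1.45 ± 0.18 in the 2D pair, opposite to most members there too, and their part was not tested either. Cyclic loess moved the median of all genes in the 3D pair from -0.11 to 0.05 and the share of called genes that were higher from 24.8% to 59.5%; the other 8 members were called lower under it too.

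**Figure D2:**
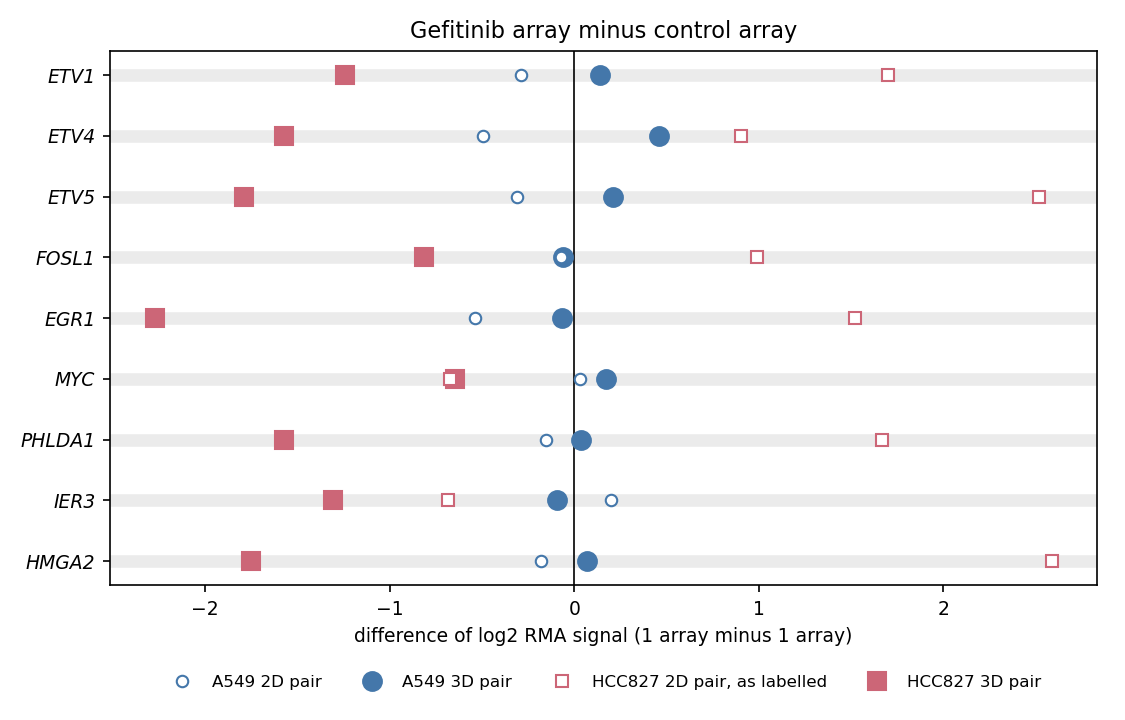
Gefitinib array minus control array in log2 RMA signal (horizontal axis) for each gene, in A549 (blue circles) and HCC827 (red squares), in 2D (open) and 3D (filled). Each mark is 1 array minus 1 array: the HCC827 3D squares lie between -2.27 and -0.65, the HCC827 2D squares between -0.69 and 2.59, and the A549 circles between -0.54 and 0.46.

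The same comparison in HCC827 2D, as labelled, gave 7 members higher and 2 lower in the array labelled gefitinib, all of them called. Of all tested genes 9.96% were called higher and 12.4% lower. HMGA2 read 9.23 in the array labelled control and 11.82 in the one labelled gefitinib, a difference of 2.59 ± 0.13 (adjusted p = 4.23e-06) or 6.01-fold. ETV5 read 6.95 and 9.47, a difference of 2.52 ± 0.17 (adjusted p = 7.63e-06). These were the largest rises, and ETV5 moved from below the array median to its highest level in the line.

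ETV1 read 6.07 and 7.77; the first lay beside the background median of its array (5.99), so the difference of 1.70 is a lower limit, as is every ETV1 difference taken from that array. PHLDA1 rose from 8.82 to 10.49 (1.67 ± 0.12) and EGR1 from 9.37 to 10.89 (1.52 ± 0.16). FOSL1 rose from 7.76 to 8.75 (0.99 ± 0.12). ETV4 went from 7.26 to 8.16, a difference of 0.90 ± 0.24 (adjusted p = 0.0234), which was not called with a robust variance prior (adjusted p = 0.0583). All 29 further probe sets were higher in the array labelled gefitinib. With the mean of all probe sets HMGA2 stood at 0.90 and ETV5 at 1.56, and FOSL1 stood at 1.99 with its largest-variance probe set.

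MYC and IER3 went the other way in 2D and so fell in both HCC827 pairs. MYC read 12.07 in the 2D array labelled control and 11.40 in the one labelled gefitinib, a difference of -0.67 ± 0.12 (adjusted p = 0.00329). IER3 read 11.70 and 11.01, a difference of -0.69 ± 0.14 (adjusted p = 0.00569). Of all tested genes, 1.03% were called lower in both pairs, 6.67% were called lower in 3D and higher in 2D, as the other 7 members were, and 2.89% the reverse. Over the 1278 genes called in both pairs, 1140 (89.2%) went in opposite directions.

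The difference between the pairs (3D minus 2D) was itself tested. It was called for 8 members, all more negative in 3D, against 19.3% of all tested genes (32.6% in either direction). Of the called genes 40.8% were more positive in 3D, and 58.2% after cyclic loess. It ran from -4.34 ± 0.18 in HMGA2 and -4.31 ± 0.23 in ETV5 to -1.80 ± 0.17 in FOSL1 and -0.62 ± 0.20 in IER3 (adjusted p = 0.0337). IER3 was not called after cyclic loess (-0.35, adjusted p = 0.195). Averaged probe sets gave -1.32 for HMGA2 and -2.55 for ETV5, and the largest-variance probe set gave -3.81 for FOSL1, all called. For MYC the difference was 0.027 ± 0.17 (adjusted p = 0.926), and its 95% interval ran from -0.36 to 0.42; after cyclic loess it stood at 0.30.

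**Figure D3:**
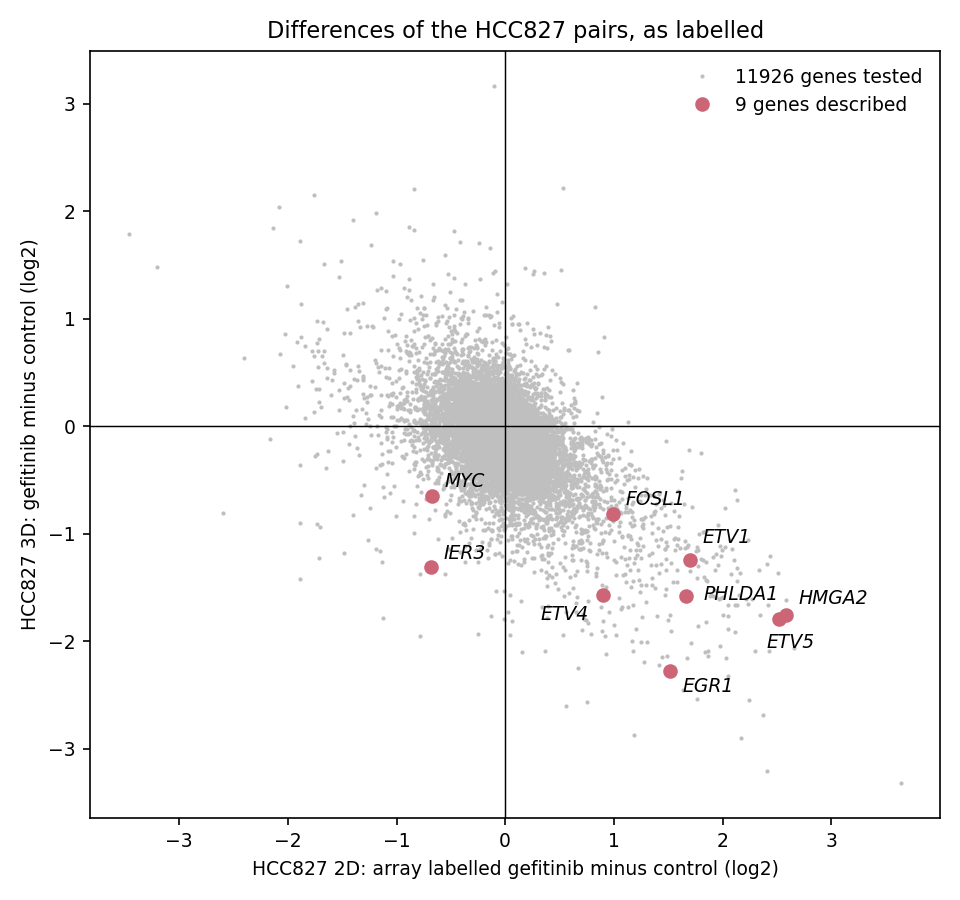
Difference between the arrays labelled gefitinib and control in HCC827 2D (horizontal axis) and in HCC827 3D (vertical axis), both log2, for all 11926 tested genes (grey) and the 9 members (red). The point of MYC (-0.67, -0.65) and that of IER3 (-0.69, -1.31) lie at the lower left, and the other 7 members lie at the lower right.

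In A549, which lacks an activating EGFR mutation, none of the 9 members was called for gefitinib as the mean of the 2D and 3D pairs. The limma fit called 0 of all 11926 genes (0%), with 1461 at an unadjusted p under 0.05; the fit with both lines in its spread also called 0, with 86. EGR1 was the member nearest to a call, at -0.30 ± 0.11 (unadjusted p = 0.0227, adjusted p = 0.342): it read 8.10 and 7.56 in 2D and 8.51 and 8.45 in 3D, control first, and so was lower in both pairs. FOSL1 was also lower in both pairs, at -0.072 and -0.058, and MYC was higher in both, by 0.031 and 0.17.

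The other 6 members differed in sign between the A549 cultures. ETV4 read 9.47 and 8.98 in 2D, a difference of -0.49, and 9.87 and 10.33 in 3D, a difference of 0.46. ETV5 stood at -0.31 in 2D and 0.21 in 3D, ETV1 at -0.29 and 0.14, HMGA2 at -0.18 and 0.069 and PHLDA1 at -0.15 and 0.038. IER3 went from 0.20 in 2D to -0.093 in 3D. This change between cultures is the residual of the fit, so it was not tested.

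The response in HCC827 3D was more negative than that in A549 for all 9 members, each called, against 16.9% of all tested genes called more negative, 3.54% more positive and 20.5% in either direction. After cyclic loess 53.5% of the called genes were more positive, against 17.3%. The difference (HCC827 3D minus A549) was -1.97 ± 0.19 for EGR1, -1.74 ± 0.20 for ETV5, -1.70 ± 0.16 for HMGA2 and -1.55 ± 0.30 for ETV4. It was smallest for FOSL1 and MYC, both at -0.75 ± 0.15 (adjusted p = 0.00707 and 0.00749). MYC was not called after cyclic loess (-0.39, adjusted p = 0.123), nor HMGA2 when its probe sets were averaged (-0.36, adjusted p = 0.0559). ETV5 stood at -0.89 and PHLDA1 at -0.91 with averaged probe sets, and FOSL1 at -1.62 and PHLDA1 at -0.80 with the largest-variance probe set, all called.

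Culture was compared as 3D minus 2D; these values use the same arrays as the gefitinib comparisons and are not independent of them. In A549, 6 members were higher and 1 lower in 3D, against 41.7% and 22.4% of all tested genes (64.1% in all), so the share of members called was near that of all genes. Higher genes made up 65.0% of the calls, and 52.5% or 54.6% when the probe sets of a gene were averaged or the one with the largest variance was used. IER3 rose most, from 10.76 and 10.96 in 2D (control and gefitinib) to 12.13 and 12.04 in 3D, by 1.22 ± 0.10 (adjusted p = 3.11e-06). MYC read 10.22 and 10.25 in 2D and 9.60 and 9.77 in 3D, lower by 0.55 ± 0.09 (-0.55, adjusted p = 2.91e-04).

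The A549 ETV factors were higher in 3D: ETV4 by 0.87 ± 0.17, ETV5 by 0.71 ± 0.12 and ETV1 by 0.40 ± 0.11 (adjusted p = 0.00915). These means join unequal pairs, control first: 0.40 and 1.35 for ETV4, 0.45 and 0.97 for ETV5, and 0.18 and 0.61 for ETV1. Between controls, the differences of ETV4 and ETV1 were less than 2 standard errors of a difference between 2 arrays. EGR1 was higher by 0.65 ± 0.11 and PHLDA1 by 0.49 ± 0.09. With averaged probe sets ETV5 stood at 0.33 and EGR1 at 0.42, both still called. PHLDA1 reversed to -0.46 (adjusted p = 9.37e-04) with its largest-variance probe set and stood at 0.0023 (adjusted p = 0.978) with the mean of its 4 probe sets, so its direction depends on the probe set. HMGA2 read between 7.93 and 8.11 in all 4 A549 arrays (0.046 ± 0.09, adjusted p = 0.679), and FOSL1 between 7.60 and 7.75 (0.081 ± 0.09, adjusted p = 0.428). FOSL1 was called at 0.62 with its largest-variance probe set and at 0.17 with the mean of its 6.

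When the spread was taken from both lines (the fit with 6 coefficients), only MYC (adjusted p = 0.0468) and IER3 (0.0271) of the members were called for culture in A549, and 2665 genes in all. It called 0 genes when any 1 of the 4 A549 arrays was left out, whichever it was.

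In HCC827 the culture difference depended on the treatment label. Between the control arrays, 7 members were higher and 1 lower in 3D, against 35.6% and 22.7% of all tested genes (58.3% in all). Between the gefitinib arrays 9 were lower, against 30.8% lower, 33.9% higher and 64.7% in all. Higher genes made up 61.1% of the calls between controls (50.1% with averaged probe sets) and 52.4% between gefitinib arrays (42.3% with averaged probe sets, 64.2% after cyclic loess). EGR1 was higher in 3D by 2.41 ± 0.16 among controls and lower by 1.38 ± 0.16 (-1.38) among gefitinib arrays. HMGA2 stood at 1.80 ± 0.13 and -2.54 ± 0.13, and ETV5 at 2.20 ± 0.17 and -2.11 ± 0.17. ETV4 (1.68 and -0.79), PHLDA1 (1.68 and -1.56) and FOSL1 (0.99 and -0.82) also had opposite signs, as did ETV1 (1.62, a lower limit since the 2D control level lay beside background, and -1.32). With averaged probe sets HMGA2 stood at 0.53 and -0.80, ETV5 at 1.25 and -1.31, EGR1 at 2.49 and -0.58, and PHLDA1 at 1.04 between controls. With the largest-variance probe set FOSL1 stood at 2.30 and -1.51 and PHLDA1 at 0.54 between controls. All of these were called in the same direction. ETV4 was not called in the gefitinib arrays after cyclic loess (-0.61, adjusted p = 0.0528).

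MYC alone of the 9 was lower in 3D in all 4 pairs of arrays, by 0.62 and 0.48 in A549 (control and gefitinib) and by 1.03 and 1.01 in HCC827. The HCC827 values were called in both comparisons (-1.03 ± 0.12, adjusted p = 6.02e-05, and -1.01 ± 0.12, adjusted p = 4.73e-05). After cyclic loess MYC stood at -0.63 and IER3 at -0.61 between gefitinib arrays, both still called. IER3 was lower in 3D in HCC827, at -0.35 ± 0.14 (adjusted p = 0.0516) between controls and -0.97 ± 0.14 (adjusted p = 1.37e-04) between gefitinib arrays, and higher in A549. The actin 3' minus 5' difference was between 1.67 and 2.64 in the 3D arrays and between -0.14 and -0.05 in the 2D arrays, so RNA integrity moved with culture in both lines. The fibroblast marker LUM was lower in 3D, at -3.64 ± 0.18 between HCC827 controls, -1.10 ± 0.18 between HCC827 gefitinib arrays and -1.37 ± 0.13 in A549. LUM read 6.28 in the HCC827 3D control and 6.01 and 5.83 in A549 3D, near the background medians. COL1A1, the other fibroblast marker tested, was called higher in both HCC827 comparisons, at 0.47 ± 0.12 and 0.54 ± 0.12. The part of RNA integrity or of these markers in the differences was not tested.

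**Figure D4:**
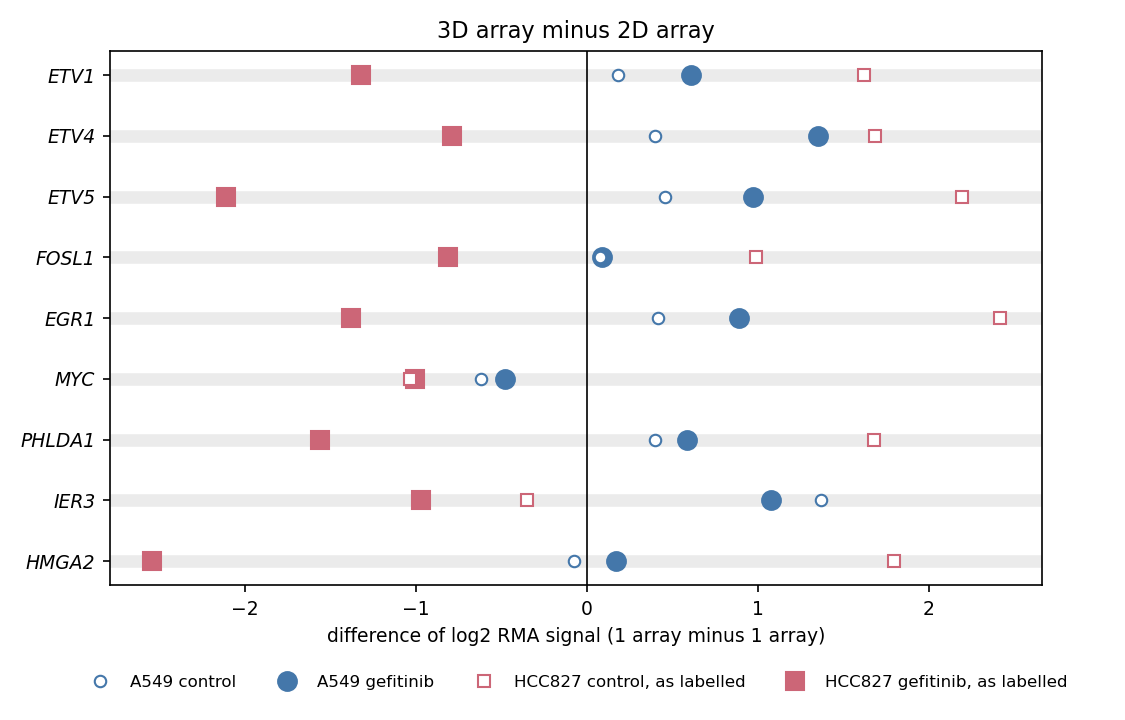
Difference 3D minus 2D in log2 RMA signal (horizontal axis) for each gene, between control arrays (open) and between gefitinib arrays (filled) of A549 (blue circles) and HCC827 (red squares), 1 array minus 1 array. All 4 marks of MYC lie below 0, at -1.03 to -0.48, whereas the HCC827 squares of 7 genes lie on both sides of 0.

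The lines were compared over 4 arrays each. In 6 members the 4 arrays of HCC827 and the 4 of A549 did not overlap, against 32.6% of all tested genes (14.4% with HCC827 above and 18.2% with it below). EGR1, HMGA2, MYC and FOSL1 were higher in HCC827, and ETV1 and ETV4 were higher in A549. HMGA2 lay between 9.23 and 11.82 in HCC827 and between 7.93 and 8.11 in A549, a gap of 1.13 between the nearest arrays, and EGR1 between 9.37 and 11.78 against 7.56 to 8.51, a gap of 0.86. The gap was 0.21 for ETV1, 0.14 for MYC, 0.035 for ETV4 and 0.0094 for FOSL1. The last 4 gaps are less than 2 standard errors of a difference between 2 arrays (0.16 for ETV1, 0.12 for MYC, 0.24 for ETV4 and 0.12 for FOSL1), so the nearest arrays of those genes do not stand apart beyond that error. The gaps of EGR1 and HMGA2 depend on the probe set, since the lines overlapped on some of their others. On 1 of EGR1 the HCC827 2D array labelled control read 6.97, against 6.75 to 7.28 in A549. On 1 of HMGA2 it read 7.26, against 7.25 to 7.64.

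As means over conditions, HCC827 was above A549 by 2.30 ± 0.07 in HMGA2, 2.23 ± 0.08 in EGR1, 1.26 ± 0.06 in MYC and 0.62 ± 0.06 in FOSL1. A549 was above HCC827 in ETV4 (-1.73 ± 0.12), ETV5 (-1.47 ± 0.08), ETV1 (-1.33 ± 0.08) and IER3 (-0.44 ± 0.07). With averaged probe sets HMGA2 stood at 0.57 and ETV5 at -0.96, with the largest-variance probe set FOSL1 at 1.53, and after cyclic loess IER3 at -0.28, each still called. All 9 were called, against 75.0% of all tested genes (35.8% higher and 39.2% lower in HCC827), and with the spread taken from both lines 3 were called, namely ETV4 (adjusted p = 0.0372), EGR1 (0.0488) and MYC (0.00127). Leaving out any 1 of the same 4 A549 arrays in that fit left 1 call, MYC. FOSL1 stood at 0.17 (adjusted p = 0.0666 and 0.0671) without the HCC827 2D gefitinib or the HCC827 3D control array.

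PHLDA1 had no settled direction between the lines. It stood at 0.20 ± 0.06 with all arrays, at -0.014 without the HCC827 2D pair, at -0.20 with its largest-variance probe set, at -0.035 with the mean of its probe sets and at -0.61 without the HCC827 2D gefitinib or 3D control array. Its HCC827 levels ran from 8.82 to 10.50 and enclosed those of A549, from 9.16 to 9.75. The lines also overlapped in ETV5 and IER3. HCC827 had the wider range in each of the 9 genes, from 0.99 in FOSL1 to 2.59 in HMGA2, against 0.15 in FOSL1 to 1.37 in IER3 in A549.

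The order of the 8 arrays was shared by some members. ETV1, ETV4 and ETV5 had their highest level in A549 3D gefitinib and their lowest in the HCC827 2D array labelled control, though in all 3 the 2 A549 3D arrays lay within 2 standard errors of each other, as did the lowest 2 arrays of ETV4. They correlated with each other at r = 0.91 to 0.99 (Pearson, 8 arrays, which share lines and cultures). EGR1, FOSL1 and HMGA2 had their lowest level in A549 2D gefitinib, by less than 2 standard errors from the next array in FOSL1 and HMGA2, and correlated at 0.94 to 0.96. Within HCC827, 7 members had the 3D control array and the 2D array labelled gefitinib as their highest 2 levels. MYC fell instead from 2D control through 2D gefitinib and 3D control to 3D gefitinib, and IER3 from 2D control through 3D control and 2D gefitinib to 3D gefitinib. No 2 neighbours in the HCC827 order of MYC were within 2 standard errors of each other.

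Likeness was also measured against the 4474 tested genes whose SD over the 8 arrays was at least 0.5. ETV1 and ETV5 were nearest to each other (0.987). Next to ETV5 came the ERK phosphatase DUSP5 (0.976) and the RAS inhibitor SPRED1 (0.973), and next to ETV1 came TRNP1 (0.979) and DUSP5 (0.976). Nearest to ETV4 were CCDC198 (0.983), C19orf48P (0.981) and HOXB8 (0.976). EGR1 was nearest to FAXDC2 (0.979), G0S2 (0.973) and the retinoic acid carrier CRABP2 (0.973), FOSL1 to C18orf54 (0.993), TACC3 (0.984) and FAXDC2 (0.976), and HMGA2 to the calcium-binding S100A2 (0.992), RAB38 (0.986) and CRABP2 (0.980). MYC was nearest to the mitochondrial superoxide dismutase SOD2 (0.989), PLSCR1 (0.984) and the DNA sensor IFI16 (0.979), PHLDA1 to the integrin subunit ITGA2 (0.979), NT5E (0.934) and CD68 (0.930), and IER3 to adrenomedullin, ADM (0.937), MT2A (0.914) and BNIP3L (0.901). These values describe 8 arrays that share lines and cultures.

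Other genes of the pathway were read from named lists. Of all tested genes, 6.73% were called higher and 20.4% lower in the HCC827 3D pair, and 9.96% and 12.4% in the 2D pair. Among 17 tested further ERK output genes, 0 were higher and 13 lower with gefitinib in HCC827 3D (median -0.74), and 11 higher and 2 lower in the 2D pair as labelled (median 0.61). Beside DUSP6 these included CCND1, a cyclin of the G1 phase (-1.78 ± 0.15 in 3D and 2.51 ± 0.15 in 2D), and SPRED2 (-1.45 ± 0.14 and 1.55 ± 0.14). In A549 none of the 17 was called, nor was any other tested gene. HMGA1, the paralogue of HMGA2, stood at -2.09 ± 0.14 in 3D and 2.30 ± 0.14 in 2D, the only call among 6 genes of the HMGA2 and let-7 list in the 3D pair.

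Relatives of the members were read in the same way, beside 6.73% higher and 20.4% lower of all tested genes in the 3D pair and 9.96% and 12.4% in the 2D pair. Of 14 tested ETS relatives, 7 were lower and 0 higher in HCC827 3D (median -0.36), led by ETS1 (-1.12 ± 0.13), SPDEF (-1.09 ± 0.14) and ELK3 (-0.76 ± 0.13). In the 2D pair 1 was called, ETV7 (-0.52 ± 0.12). Of 11 AP-1 subunits, 1 was higher and 3 lower in 3D, among them FOS (-1.68 ± 0.13), JUNB (-0.76 ± 0.12) and JDP2 (0.96 ± 0.12). In 2D, 1 was higher (MAFF, 0.66 ± 0.12) and 3 lower, with FOSL2 at -1.76 ± 0.12 and ATF3 at -1.73 ± 0.13. FOSL1 and FOSL2 thus differed in sign in that pair.

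Of 13 further immediate early genes, 2 were higher and 6 lower in 3D (median -0.37), with IER5 at -1.09 ± 0.13, IER2 at -1.07 ± 0.12 and KLF4 at -1.07 ± 0.12. In 2D, 2 were higher and 4 lower (median -0.22), with KLF6 at -1.45 ± 0.13, CCN1 at -0.88 ± 0.13 and IER2 at 0.71 ± 0.12. Of 19 MYC targets, which serve ribosome production and metabolism, 0 were higher and 9 lower in 3D (median -0.37), led by LDHA (-2.25 ± 0.15), FBL (-1.09 ± 0.13) and NOLC1 (-0.92 ± 0.15). In 2D, where MYC itself was lower, 2 targets were higher and 0 lower (median 0.15), FBL at 0.70 ± 0.13 and LDHA at 0.67 ± 0.15. Of 9 genes of the MYC network, 1 was higher in 3D (MXD4, 0.51 ± 0.13) and 2 lower (MXI1, -0.91 ± 0.12, and MXD1, -0.42 ± 0.13). In 2D, 0 were higher and 3 lower, namely MXD4 (-0.83 ± 0.13), MAX (-0.59 ± 0.13) and MXI1 (-0.39 ± 0.12).

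Upstream, of 15 tested genes of the EGFR, RAS and ERK cascade, 2 were higher and 5 lower in HCC827 3D (median -0.10). The shares of all tested genes were 6.73% and 20.4%. MAP2K1, which encodes the kinase MEK1, stood at -1.15 ± 0.12 in 3D and 0.77 ± 0.12 in 2D, and EGFR at -0.55 ± 0.14 and 0.56 ± 0.14. Of 11 genes for repression or turnover of ETV factors and MYC, 1 was called in 3D, against 27.1% of all tested genes. It was the mitotic kinase AURKA (-1.34 ± 0.18). For culture in A549, 3 of the 11 were higher and 2 lower in 3D, against 41.7% and 22.4% of all tested genes. CIC, the repressor of the PEA3 factors, was higher by 1.26 ± 0.09, and FBXW7, which targets MYC for degradation, by 1.56 ± 0.09. AURKA stood at -1.22 ± 0.12. In HCC827, CIC (0.76 and 0.66) and FBXW7 (1.60 and 2.00) were also called higher in 3D, between controls and between gefitinib arrays. Their part in the levels of the members was not tested.

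In HCC827, proliferation genes moved with all 9 members in 3D and with 7 of them in 2D, where MYC and IER3 were lower. Of 10, 0 were higher and 9 lower with gefitinib in 3D (median -1.33, TYMS at -2.15 ± 0.12), against 20.4% of all tested genes lower. All 10 were higher in the 2D pair as labelled (median 1.72, TOP2A at 2.42 ± 0.28), against 9.96%. In A549 8 of 10 were lower in 3D than in 2D (median -1.03), against 22.4%. There 6 of the 9 members were higher, against 41.7%. Between HCC827 controls, 7 of the 10 were higher and 2 lower in 3D (median 0.65), against 35.6% and 22.7%. Of the members, 7 were higher and 1 lower in that comparison. Between HCC827 gefitinib arrays, all 10 were lower in 3D (median -2.33), against 30.8%, and so were all 9 members. The part of proliferation in the differences of the members was not tested.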

How the data were processed

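The authors deposited log2 signals of 49495 probe sets on 8 arrays, made, per the submitters' processing notes, with RMA (robust multi-array averaging) under R 3.2.1; no source used here gives a genome build. From every sample 100 ng of RNA was labelled, per the labels' protocols. Of the probe sets, 102 were controls, 45278 carried 1 gene symbol in the array annotation, 1333 carried several and 2782 were not listed; 45208 of the 45278 matched RefSeq (GRCh38.p14), used for symbols. The 9 members have 38 probe sets. The number of arrays limits precision.

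A linear model with 7 coefficients (a mean, culture and gefitinib for A549, and a mean for each of the 4 HCC827 conditions) was fitted in R 4.3.3 by limma 3.58.1; variances were moderated by empirical Bayes along a trend. Residual degrees of freedom were 1, beside 9.06 from the prior. The alternative with 6 coefficients (line, culture, gefitinib, and both interactions with line) has 2 and holds the opposed HCC827 pairs in its spread. Alternatives changed the probe set, normalisation, filter, variance prior or arrays. The members, lists, fit and alternatives were chosen with earlier results of these data known. Named genes were all members, EGFR, DUSP6, CCND1, up to 3 of the largest called members of each list (up to 2 where none was called) and the 3 most alike genes. CIC, FBXW7 and AURKA were the 3 of their list for culture in A549. On simulated data with 11926 genes, the test for gefitinib in HCC827 3D called 100 of 100 genes at a change of log2 1, 100 of 100 at log2 2, and 29 of 11726 genes left unchanged. The 29 stand beside 200 changed genes, and the test for gefitinib in A549 called 13 unchanged genes. The simulated noise was drawn from the variances of this fit, the same for both lines. Recovery thus follows from that setting and cannot check whether HCC827 varies like A549.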

Additional observations from a re-analysis of the deposited data

Results flagged for a closer look

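The gefitinib response differed between HCC827 3D and A549 by the test of the difference in all 9 genes. The values (HCC827 3D minus A549, log2) were -1.17 for ETV1, -1.55 for ETV4, -1.74 for ETV5, -0.75 for FOSL1, -1.97 for EGR1, -0.75 for MYC, -1.52 for PHLDA1, -1.36 for IER3 and -1.70 for HMGA2.

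The HCC827 pairs (3D minus 2D, as labelled) differed in 8 of the 9. The values were -2.94 for ETV1 (at least this far from 0, since its 2D control level lay beside background), -2.48 for ETV4, -4.31 for ETV5, -1.80 for FOSL1, -3.79 for EGR1, -3.24 for PHLDA1, -0.62 for IER3 and -4.34 for HMGA2. The labels of the HCC827 2D pair cannot be checked from the values, and MYC and IER3 were lower in the arrays labelled gefitinib in both cultures.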

How the results depend on the processing

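No paired analysis was possible because each condition had 1 array and the labels give no replicate numbers. For gefitinib in A549, 2 genes were called with the largest-variance probe set, 10 without a filter on low values and 2 with a robust variance prior, none of them a member; leaving out 1 array at a time in the 6-coefficient fit gave 0 to 2 genes and 0 members. Cyclic loess gave 1566 genes, against 2442, for the response of HCC827 3D minus A549. The 6-coefficient fit gave 2665 genes and 2 members for culture in A549 (0 to 7652 genes and 0 to 7 members with 1 array left out) and 5736 genes and 3 members for the lines (1780 to 8557 and 1 to 9). The lowest counts, 0 for culture and 1780, 1798, 1801 and 1811 for the lines, came without an A549 array, when the spread came from HCC827 alone.

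Small A549 gefitinib values changed sign: without an A549 2D array ETV1 stood at 0.14, ETV4 at 0.46, ETV5 at 0.21, PHLDA1 at 0.038, IER3 at -0.093 and HMGA2 at 0.069, since only the 3D pair is left. PHLDA1 stood at 0.023 with the mean of its probe sets and 0.048 with its largest-variance probe set, and IER3 at -0.026 after cyclic loess. For culture in A549, PHLDA1 stood at -0.46 with the largest-variance probe set and HMGA2 at -0.078 without an A549 gefitinib array. Between the lines, PHLDA1 stood at -0.035, -0.20, -0.014 and -0.61 with the mean, the largest-variance probe set, no HCC827 2D pair, and no HCC827 2D gefitinib or 3D control array. With averaged probe sets ETV1 had no test in any comparison, since it failed the filter on low values.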
